A study of Mus musculus with 9 samples.

Results

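The genes Egr1, Egr2, Egr3, Ier2, Ier3, Ier5, Arc, Phlda1 and Srf were followed in newborn mouse epidermis as a group of immediate early genes and their regulator. The annotation of the Affymetrix mouse array gave 14 probe sets that named 1 of these 9 genes and no other, and the 9 genes stand among 18193 genes measured. A probe set reads mostly the 3′ end of a transcript. Egr1, Ier2, Ier3, Arc and Phlda1 had 1 probe set each, Egr2, Egr3 and Srf had 2 each, and Ier5 had 3. The genes were chosen with the knockout and wildtype values of these arrays known from an earlier account. Their differences between the groups are therefore a description. Where it is said that one of them passed the threshold of a fit over all genes, that label marks how its difference stands to the spread between arrays and supports nothing further.

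Immediate early genes are transcribed within minutes of a signal without new protein synthesis, and their mRNAs are mostly short-lived. Growth factors acting through the EGF receptor and the ERK kinases, mechanical strain, wounding and cell stress all induce them. SRF, bound at a DNA element called the CArG box together with ETS-family cofactors phosphorylated by ERK, drives many of them. In epidermis they are known from the response of keratinocytes to wounding and to EGF receptor ligands.

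The samples were sheets of trunk epidermis from animals killed at birth, and each sheet had been lifted off after 30 seconds in buffered saline at 56 °C. The 4 knockout samples came from matings of Alox12b heterozygotes and lacked Alox12b, the epidermal lipoxygenase that acts on acylceramides of the skin barrier. The 5 wildtype samples were labelled as strain 129S6. The labels used here do not give the strain of the knockout animals or the part of the gene that was deleted. Alox12b read 10.84 to 11.60 on the knockout arrays and 10.56 to 11.32 on the wildtype arrays, so its level did not separate the groups. All values are the authors' log2 expression values, and the number of arrays limits their precision. The labels call the samples biological replicates.

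Several features of the arrays bear on what follows. The mean of 13 keratinocyte markers was 10.58 to 11.04 in knockout and 10.88 to 11.16 in wildtype, and limma called 0 of them, with 5 at an unadjusted p under 0.05. Over all 18193 genes, limma gave 3232 at an unadjusted p under 0.05, and such counts for any list stand beside that background. The suprabasal markers Krt1, Krt10 and Lor read between 13.99 and 14.46 on every array. The highest value of the whole table was 14.46, so these 3 could show little further rise. Other suprabasal markers went both ways, as means of knockout and wildtype. Ivl read 12.23 against 11.72 and Tgm1 9.68 against 9.18. Flg read 12.88 against 13.16, Dsg1a 10.60 against 11.19, Dsc1 12.18 against 12.38 and Tgm3 8.13 against 8.21. Of the basal markers, Trp63 read 5.30 to 6.67 in knockout and 7.05 to 8.65 in wildtype, without overlap, and Krt15 8.08 to 9.37 and 9.24 to 10.64. The basal markers Krt5 and Krt14 overlapped between the groups. Krt5 had means of 8.61 in knockout and 8.95 in wildtype, and Krt14 of 8.92 and 8.91. The part of these markers in the differences of the immediate early genes was not tested. Xist, the RNA of the inactive X chromosome, read 9.99 to 10.20 in knockout, 10.95 on array 4 of wildtype and 3.23 to 4.32 on the other 4, so all knockout animals and 1 wildtype animal had the female pattern. Sex pattern thus nearly coincided with genotype, and the labelled origin of the animals also differed between the groups. The parts of sex and origin in a difference between the groups cannot be fully told apart from that of genotype. Wildtype array 5 stood apart from its group. Its median correlation with the other wildtype arrays was 0.976 over all genes, against 0.988 to 0.991 for the others and 0.974 to 0.977 within knockout, and basal markers did not move one way there. Krt14 read 7.36 on that array and 9.11 to 9.65 on the other wildtype arrays, Krt5 was also lowest there, at 7.47, while Trp63 read 8.65 and 7.05 to 7.49, and Krt15, at 9.43, lay within the range of the others. In bulk tissue a smaller number of cells of a type and less RNA per cell cannot be told apart.

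Promoter sequence was available for 4 of the 9 genes, from RefSeq with the GRCm38.p6 build. The 250 bases before an annotated start are shown for Srf, Egr2, Ier3 and Ier5, 5′ to 3′ on the gene's strand, because CArG boxes are the sites at which SRF acts on immediate early genes. Capitals mark CArG boxes in Srf and Egr2 and, in Ier3, a match to the NF-kB site. The windows lie at chr17:46556163-46556412 (minus strand) for Srf and chr10:67537619-67537868 (plus strand) for Egr2. Those of Ier3 and Ier5 lie at chr17:35821463-35821712 (plus strand) and chr1:155099637-155099886 (minus strand).
Srf: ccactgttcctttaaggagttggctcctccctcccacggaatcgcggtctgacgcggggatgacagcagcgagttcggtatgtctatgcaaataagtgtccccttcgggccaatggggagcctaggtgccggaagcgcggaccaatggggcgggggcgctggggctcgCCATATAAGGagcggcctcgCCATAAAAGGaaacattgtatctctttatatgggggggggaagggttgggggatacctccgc
Egr2: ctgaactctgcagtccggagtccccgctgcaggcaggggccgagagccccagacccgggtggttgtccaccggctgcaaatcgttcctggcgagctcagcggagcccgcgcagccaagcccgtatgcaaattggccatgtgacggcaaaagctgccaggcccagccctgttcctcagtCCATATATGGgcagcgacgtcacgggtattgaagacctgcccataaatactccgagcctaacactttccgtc
Ier3: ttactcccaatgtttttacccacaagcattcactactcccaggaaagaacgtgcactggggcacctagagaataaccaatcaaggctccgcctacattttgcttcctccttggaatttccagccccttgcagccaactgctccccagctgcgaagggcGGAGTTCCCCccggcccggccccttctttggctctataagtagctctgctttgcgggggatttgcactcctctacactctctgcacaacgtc
Ier5: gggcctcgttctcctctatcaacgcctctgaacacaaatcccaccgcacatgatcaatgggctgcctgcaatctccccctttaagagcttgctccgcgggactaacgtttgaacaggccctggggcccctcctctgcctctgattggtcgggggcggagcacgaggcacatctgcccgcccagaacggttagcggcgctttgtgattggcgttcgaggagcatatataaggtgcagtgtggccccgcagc

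The Srf window held 2 CArG boxes, starting 82 and 62 bases before the start, and the Egr2 window held 1, starting 72 bases before it. A CArG box was found in 1.47% of 32851 promoter windows of the same length, with both strands searched. The Srf window also held the Egr site GCGNGGGCG, found in 4.70% of windows, which does not overlap its CArG boxes. An NF-kB site, found in 7.25% of windows, started 92 bases before the start of Ier3. It was also matched in the window of another Egr2 start, 1 of 5 annotated, at 2 overlapping positions. That window held no CArG box, and the window of each remaining Egr2 start held 1. The cAMP response element TGACGTCA and the AP-1 site TGANTCA, in 1.55% and 6.75% of windows, had no match in the windows of these 4 genes. A match is a run of letters and not a measured site. Of these 4 genes Ier3 was among those called higher in knockout, and Srf, Egr2 and Ier5 were not. Egr1, Ier2, Arc and Phlda1, also called higher, had no promoter sequence here, so matches and calls were not compared.

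The group divided into genes that stood far higher in knockout epidermis and genes that did not. Phlda1, Arc, Egr1, Ier3 and Ier2 were 10.1-fold, 6.29-fold, 4.95-fold, 4.23-fold and 2.36-fold higher on the knockout arrays. Egr2 and Egr3 overlapped between the groups, Srf was slightly higher and Ier5 slightly lower. In limma, fitted over all genes, 5 of the 9 passed an adjusted p of 0.05, all of them higher, where 0.511% of all genes were called higher and 0.731% lower. Since the genes were chosen on this contrast, nothing further is read from that count. The median difference of the 9 genes was 1.24 on the log2 scale, and the median over all genes was 0.02.

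**Figure D1:**
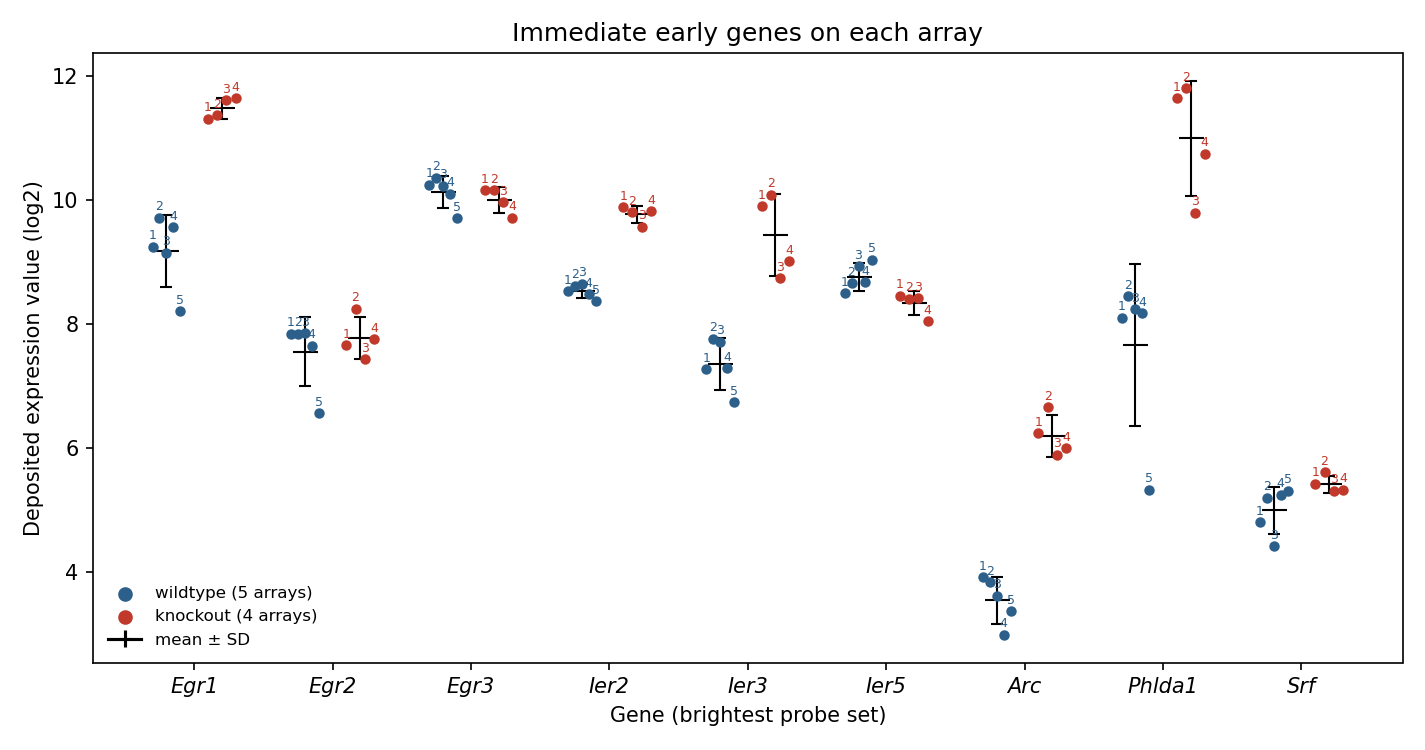
Deposited log2 value of the brightest probe set of each of the 9 genes on every array, with wildtype arrays in blue, knockout arrays in red, array numbers beside the points, and black bars for the mean ± SD. Every knockout point of Egr1, Ier2, Ier3, Arc and Phlda1 lies above every wildtype point, while Egr2 and Egr3 overlap and wildtype array 5 lies at 5.33 for Phlda1.

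Srf encodes serum response factor, the regulator through which growth factor and actin signals reach many of the other genes. Its brighter probe set, 1418255_s_at, read 5.43, 5.61, 5.31 and 5.32 on knockout arrays 1 to 4 and 4.80, 5.20, 4.41, 5.25 and 5.31 on wildtype arrays 1 to 5. The difference was 0.42 with an SE of 0.19, and the lowest knockout value lay barely above wildtype array 5. On 1418256_at Srf read 5.07, 5.03, 5.46 and 5.17 in knockout and 4.55 to 5.01 in wildtype, a difference of 0.32. Both probe sets thus placed knockout slightly above wildtype without overlap, and neither passed the threshold.

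Egr1, Egr2 and Egr3 encode zinc finger transcription factors that bind the same GC-rich DNA element. Egr1 read 11.32, 11.37, 11.62 and 11.65 on knockout arrays 1 to 4. On wildtype arrays 1 to 5 it read 9.25, 9.72, 9.16, 9.56 and 8.21. The groups lay 1.60 apart at their nearest, and the difference was 2.31 with an SE of 0.26. The knockout arrays spanned 0.33, and wildtype array 5 was the lowest of its group.

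Egr2, which is also known from hindbrain and Schwann cell development, read 7.66, 8.25, 7.44 and 7.75 in knockout on 1427682_a_at. In wildtype it read 7.85, 7.84, 7.85, 7.65 and 6.57, so 4 wildtype arrays lay close together inside the knockout range and array 5 lay far below. The difference was 0.22 with an SE of 0.27, and it was -0.03 without wildtype array 5. The second probe set, 1427683_at, had the same shape, with 7.59 to 8.15 in knockout, 6.39 on wildtype array 5 and 7.64 to 7.82 on the other wildtype arrays.

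Egr3 gave different pictures on its probe sets. The brighter, 1436329_at, read 10.16, 10.17, 9.96 and 9.72 in knockout and 10.25, 10.36, 10.24, 10.10 and 9.71 in wildtype, a difference of -0.13 with an SE of 0.16. On 1421486_at it read 5.79 and 5.98 on knockout arrays 1 and 2, within the wildtype range of 5.70 to 6.07, and 6.65 and 6.83 on knockout arrays 3 and 4, above it. The difference there was 0.37, and with the mean of both probe sets it was 0.12, so the sign for Egr3 depended on the probe set.

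Ier2, Ier3 and Ier5 share the name immediate early response, not a protein family as a whole. Ier2 and Ier5 encode related nuclear proteins. Ier2 had the tightest values of the genes called higher, at 9.88, 9.81, 9.57 and 9.83 in knockout and 8.53, 8.62, 8.66, 8.49 and 8.37 in wildtype. Its difference was 1.24 with an SE of 0.11, and the groups lay 0.92 apart.

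Ier5 went the other way. Its brightest probe set, 1417612_at, read 8.46, 8.41, 8.42 and 8.04 in knockout and 8.50, 8.66, 8.94, 8.67 and 9.04 in wildtype. The groups did not overlap but lay close, at a difference of -0.43 with an SE of 0.14, which did not pass the threshold. Ier5 read 5.03 to 5.24 against 5.14 to 5.56 on 1417613_at, with overlap, and 2.52 to 3.10 against 3.51 to 5.28 on 1460009_at, without. All 3 probe sets had lower means in knockout, and wildtype array 5 was the highest array on each.

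Ier3, also called IEX-1, encodes a short-lived membrane protein that acts on ERK signalling and cell survival and is a known NF-kB target. It read 9.91, 10.09, 8.74 and 9.01 on knockout arrays 1 to 4 and 7.28, 7.76, 7.72, 7.29 and 6.74 on wildtype arrays 1 to 5. The difference was 2.08 with an SE of 0.30. The knockout arrays fell into a higher pair, 1 and 2, and a lower pair, 3 and 4, and both pairs lay above all wildtype arrays. The Ier3 probe set is of a kind that also reads other transcripts of the same gene.

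Arc encodes a protein with a retroviral Gag-like fold that is best known from synapses, where activity induces it. In these sheets Arc read 6.24, 6.65, 5.89 and 5.99 in knockout and 3.91, 3.84, 3.62, 2.98 and 3.37 in wildtype, a difference of 2.65 with an SE of 0.22. The groups lay 1.98 apart, the widest gap among the 9 genes. The background of this probe set was not measured here, so it is not known whether wildtype Arc exceeds it. Neuron and Schwann cell markers had a mean over 5 genes of 3.09 to 3.20 in knockout and 2.81 to 3.00 in wildtype. Of these 5, Syn1 read 4.71 against 4.28, S100b 3.30 against 3.01, Tubb3 3.20 against 2.93, Nefl 2.49 against 2.25 and Snap25 1.95 against 2.02, as means of knockout and wildtype. Limma called 0 of them, with 1 at an unadjusted p under 0.05, and the part of such cells in the difference of Arc was not tested.

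Phlda1, a pleckstrin homology-like protein also called TDAG51, read 11.65, 11.81, 9.80 and 10.75 on knockout arrays 1 to 4. On wildtype arrays 1 to 5 it read 8.10, 8.46, 8.24, 8.18 and 5.33. The means were 11.00 ± 0.93 (SD, n = 4) and 7.66 ± 1.31 (SD, n = 5), a difference of 3.34 with an SE of 0.63. The wildtype spread came largely from array 5, and the knockout values were graded. The other 4 wildtype arrays spanned 0.35, and without array 5 the fold was 6.77. Without knockout array 3 the fold was 13.4. Phlda1 no longer passed when knockout array 1, 2 or 4 or wildtype array 1, 2, 3 or 4 was left out, with folds from 8.42 to 11.6.

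**Figure D2:**
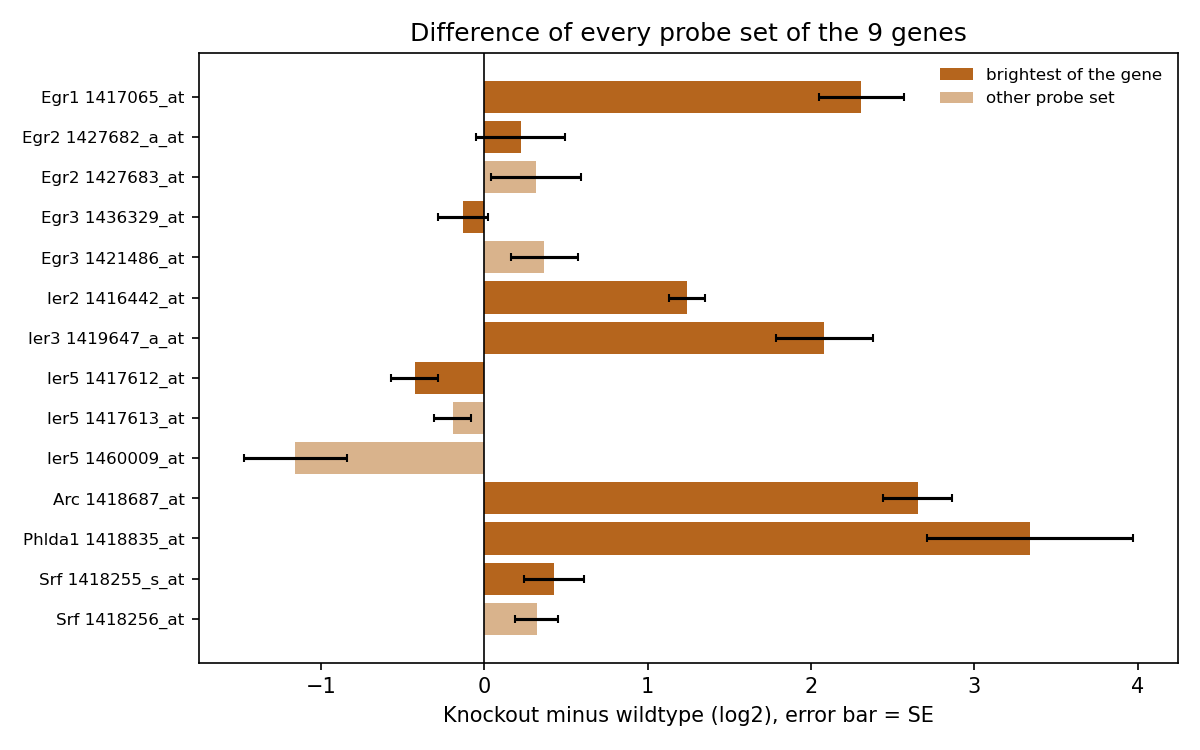
Knockout minus wildtype difference on the log2 scale for all 14 probe sets, with SE bars from limma fitted over all probe sets; dark bars mark the brightest probe set of a gene. Egr1, Ier2, Ier3, Arc and Phlda1 have long bars to the right, from 1.24 for Ier2 to 3.34 for Phlda1, the bars of Egr3 point in opposite directions, and all Ier5 bars point left.

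Over all 14 probe sets, 7 lay above every wildtype array on every knockout array, 2 lay below and 5 overlapped, where 2.82% of all probe sets lay above and 4.36% below. With every probe set tested separately, 5 of the 14 passed, all of them higher, where 0.34% of all probe sets were called higher and 0.766% lower. At the level of genes, 6 of 9 lay above and 1 below, where 3.14% and 5.14% of all genes did so. Against wildtype array 4, the wildtype array with the female pattern, every knockout array was higher for Arc, Phlda1, Ier3, Egr1 and Ier2. For Srf this also held, but by only 0.07 at the nearest, and it did not hold for Egr2, Egr3 and Ier5. The share of all genes above that array on every knockout array was not counted. The knockout mean less that array was 3.21 for Arc, 2.83 for Phlda1, 2.15 for Ier3, 1.92 for Egr1 and 1.29 for Ier2. With the Xist level as a covariate, a fit that sets knockout mainly against that array, Arc passed, at 3.09. The differences of Phlda1, Ier3, Egr1 and Ier2 were then 2.68, 2.08, 1.91 and 1.26 and did not pass.

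The knockout arrays ranked differently for different genes. On their brightest probe sets, Phlda1, Ier3, Arc and Srf had the same order from low to high, array 3, then 4, 1 and 2. The other Srf probe set, 1418256_at, had the reverse order, with array 3 highest at 5.46 and array 2 lowest at 5.03. On the brighter Srf probe set, arrays 3 and 4 lay close, at 5.31 and 5.32. Egr1 had the order 1, 2, 3, 4, with array 4 highest at 11.65, and the dimmer Egr3 probe set had that order too. Phlda1 spanned 2.01 over the knockout arrays and Ier3 1.35, against 0.33 for Egr1 and 0.31 for Ier2.

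Heat shock genes followed the first of these orders in part. The mean of 12 inducible heat shock genes was 7.62, 8.07, 8.64 and 9.18 on knockout arrays 3, 4, 1 and 2, and 8.03 to 8.42 on the wildtype arrays. Hspa1a, an inducible HSP70 gene, read 8.06, 8.79, 9.03 and 10.96 in the same array order, against 8.37 to 9.08 in wildtype. Of the 12 genes, 6 had that order and 6 had another. Hspb1, a small heat shock protein gene, ran nearly the other way, at 13.23, 13.02, 12.69 and 12.77 on arrays 3, 4, 1 and 2. Limma called 0 of the 12, with 2 at an unadjusted p under 0.05, and their median difference was 0.06. On knockout array 3, where the heat shock mean lay below all wildtype arrays, Egr1 was 2.44, Arc 2.35, Phlda1 2.14, Ier3 1.39 and Ier2 1.04 above the wildtype mean. The part of heat shock in the differences among knockout arrays was not tested.

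**Figure D3:**
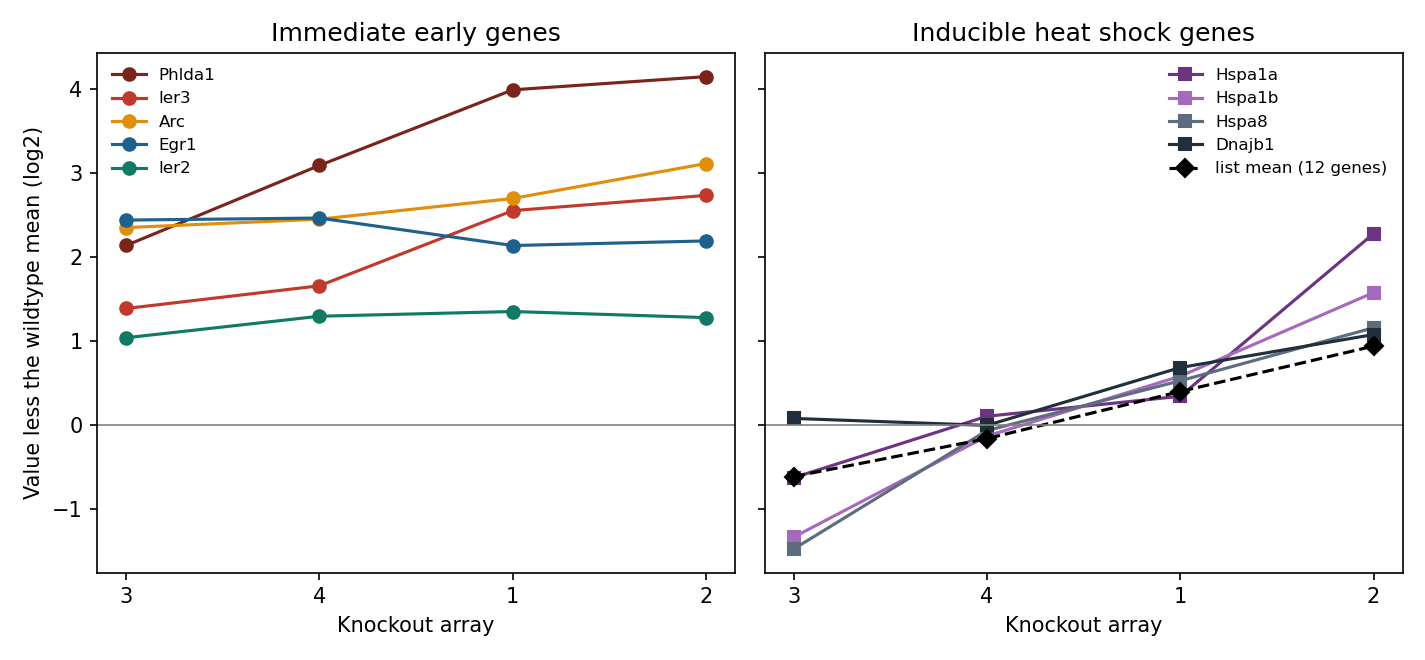
Value of each gene on the knockout arrays less its wildtype mean, on the log2 scale, for 5 immediate early genes (left) and for 4 heat shock genes and the mean of the 12-gene list (right); arrays are placed by the heat shock mean and lines join the values of a gene. Phlda1, Ier3 and Arc are highest on array 2, as are the heat shock genes drawn, and Egr1 is highest on array 4; all 5 immediate early genes stay above 0 on array 3 where the heat shock mean lies below it.

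Markers of other cell types overlapped between the groups except those of neurons and Schwann cells. That exception rests on low values. The mean of the neuron and Schwann cell list did not exceed 3.20 on any array, where the lowest and highest array medians were 3.14 and 3.31. The background of its probe sets was not measured, and whether such cells differed between the groups was not tested. Adipocyte markers had the largest median difference of the cell type lists, at -1.61 over 4 genes, all lower in knockout. Their mean was 4.27 to 5.49 in knockout and ran from 4.37 on array 1 to 9.22 on array 3 in wildtype, and limma called 0 of the 4, with 1 at an unadjusted p under 0.05. Fibroblast markers had a mean over 9 genes of 5.79 to 8.75 in knockout, highest on array 4, and 5.49 to 7.55 in wildtype. Smooth muscle and pericyte markers stood at 5.63 on knockout array 4 and at 3.38 to 3.85 on all other arrays. Langerhans cell and macrophage markers ran from 5.93 to 6.26 in knockout and 5.04 to 7.08 in wildtype. Their part in the differences of the immediate early genes was not tested.

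Transcripts of the pathway that leads to these genes gave no call at this number of arrays. Of 17 tested genes of the ERK cascade, from the EGF receptor family to Creb1, limma called 0, with 2 at an unadjusted p under 0.05, and the median difference was -0.17. The largest differences were in Sos2, a Ras exchange factor gene, at 5.21 against 6.04, and in Creb1, at 5.21 against 5.83. Both wildtype means were raised by wildtype array 5. Sos2 read 7.08 there and 5.70 to 5.92 on the other wildtype arrays, and Creb1 7.02 and 5.41 to 5.78. Of 6 SRF cofactor genes limma called 0, and 0 reached an unadjusted p under 0.05. Mrtfb read 7.38 against 7.92 and Elk4 7.76 against 8.03. For Mrtfb wildtype array 5 was again the highest, at 8.72, with 7.38 to 7.90 on the other wildtype arrays.

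Of 21 actin and adhesion genes that SRF is known to drive, limma called 0. An unadjusted p under 0.05 was reached by 4 of the 21, where 3232 of all 18193 genes reached it. Of the 21 differences, 12 were positive, with a median of 0.03 against 0.02 over all genes. Tpm2, a tropomyosin gene, read 7.77 ± 0.95 (SD, n = 4) against 6.64 ± 0.60 (SD, n = 5), and Fhl2 read 7.24 against 6.48. Of 7 family members and corepressors limma called 0, and 2 reached an unadjusted p under 0.05. Phlda2 read 6.42 and 6.57 on knockout arrays 1 and 2, 4.32 and 5.49 on arrays 3 and 4, and 3.70 to 4.92 in wildtype. Nab2, a corepressor that binds EGR proteins and is induced by them, read 6.36 to 6.97 in knockout, 6.66 on wildtype array 5 and 5.50 to 5.66 on the other wildtype arrays. Without wildtype array 5, 1 of these 7 genes passed.

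Other immediate early genes were higher in many cases. Of 44 tested, 16 rose in limma and 0 fell, which is 36.4% against the 1.24% of all genes called in either direction. Of the 44 differences, 39 were positive, with a median of 1.00 against 0.02 over all genes. The list was drawn up with earlier results of these arrays known, so these counts are not independent evidence. Among those that rose, Nr4a1, an orphan nuclear receptor, stood at 9.65 ± 0.47 (SD, n = 4) against 6.56 ± 0.44 (SD, n = 5), and its adjusted p in limma was 0.000421. Fosb, an AP-1 subunit, rose by 2.97, the EGF receptor ligand gene Hbegf by 3.42 and the NF-kB inhibitor gene Tnfaip3 by 4.20. Without knockout array 2 the number that rose was 10.

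**Figure D4:**
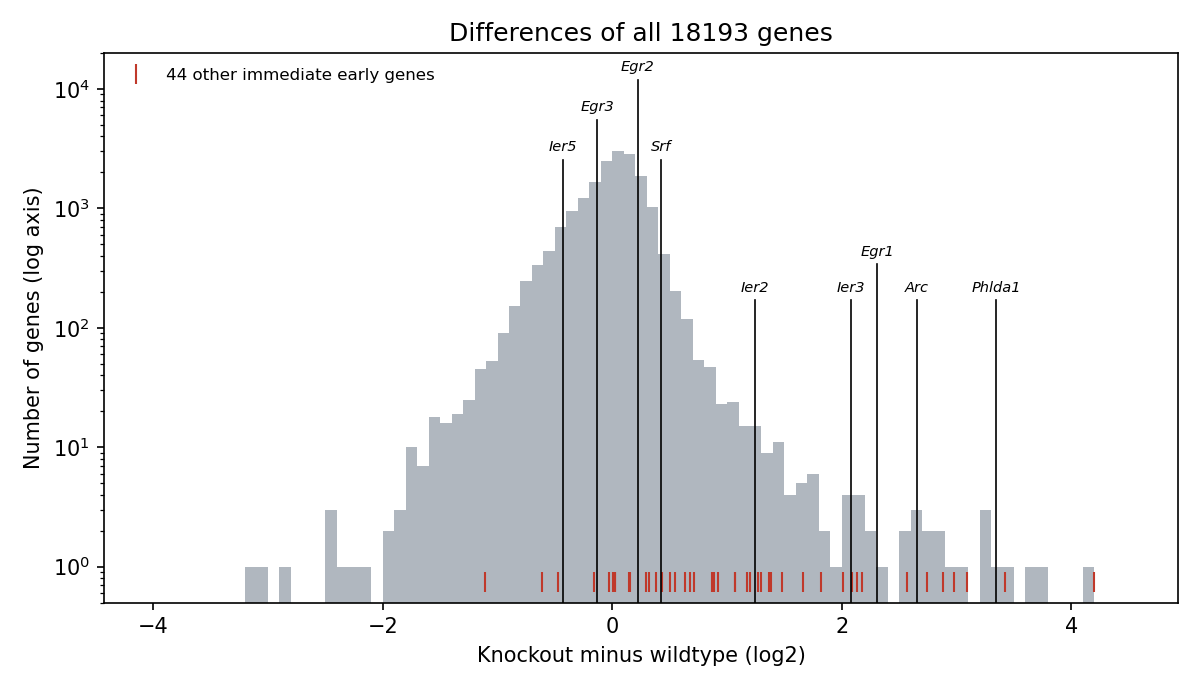
Histogram of knockout minus wildtype differences of 18193 genes on the log2 scale, with a log axis for the number of genes, black lines at the 9 genes and red ticks at 44 other immediate early genes. Ier2, Ier3, Egr1, Arc and Phlda1 lie in the thin right tail from 1.24 upward, and Ier5, Egr3, Egr2 and Srf lie within the bulk.

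The genes whose array pattern was most like that of the group were found from values less each group's mean, compared with the mean of the 9 genes over 9 arrays. The highest Pearson r was 0.983 for Noct, which encodes the clock-controlled enzyme nocturnin, followed by Vasn, Map3k8, Wfikkn1, Mir22hg, Nfkbia, Fads3 and Sertad1, the last at 0.956. The measure leans on wildtype array 5, where Phlda1 was very low. Each of the 9 genes is itself part of that mean, so its r is partly built in, most of all for a gene with a wide range. Phlda1 had the widest, at 2.01 over the knockout arrays and 3.13 over the wildtype arrays. Among the 9 genes themselves, Phlda1 followed that mean most closely with all arrays, at 0.971, and Ier5 least, at -0.29. Without wildtype array 5 Ier3 was closest, at 0.961 against 0.937 for Phlda1, Egr1 was least close, at -0.26, and Ier5 stood at 0.27. Noct stood at 0.961 without it. These values describe likeness over few arrays, and genes picked as the nearest of all have a high r by choice.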

How the data were processed

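The authors' deposited table gave log2 values of 45037 probe sets on 9 arrays. Per the submitters' processing notes affy was used; its version, background correction, normalization and probe summary are not given in the sources. The scale was inferred from the range of 1.43 to 14.46, and values were used as deposited. Groups and replicate numbers came from sample titles. The platform annotation named 1 gene for 34945 probe sets, several for 932 and none for 9160, and 34741 had a gene number in the GRCm38.p6 table. The probe set with the highest mean stood for its gene. Genes were fitted with limma 3.58.1 in R 4.3.3, genotype as the only term, with Benjamini-Hochberg adjustment over 18193 genes, and the code was tested on simulated data. The genes and lists were chosen with earlier results of these data known. Named list genes were up to 4 with the largest difference among those past the threshold or, with none, the 2 largest. The nearest 8 genes by r were named. Of the listed genes, 8 of the ERK cascade and 1 each of the actin and the other immediate early gene lists were not analysed here. Same-numbered arrays of the groups did not deviate together, with correlations from -0.21 to 0.18. Alternatives were other probe set summaries, normalizations, filters, variance models, an Xist covariate, a replicate block and each array left out. Wildtype array 4 as the only wildtype array, and separate probe sets, were added after the data had been seen.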

Additional observations from a re-analysis of the deposited data

Results flagged for a closer look

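In 28 groups of values, those of 14 probe sets in knockout and in wildtype, 5 held an array far from the rest, with its gap to the nearest value over the critical share of the group's range; chance marks about 1 group in 20. Wildtype array 5 was low on both Egr2 probe sets, at 6.57 and 6.39, and on Phlda1, at 5.33. Ier5 was low on knockout array 4 at 8.04 on 1417612_at, and high on knockout array 3 at 5.24 on 1417613_at.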

How the results depend on the processing

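The 5 genes past the threshold, Egr1, Ier2, Ier3, Arc and Phlda1, also passed with the mean of all probe sets, quantile normalization, median centring, genes with a mean of at least 4, trend and robust settings, the replicate block, and probe sets tested separately. Without the less specific probe sets Ier3 could not be tested, 4 of 8 passed and the median difference was 0.78. With the Xist covariate 1 of the 9 genes passed, 9 genes in all and 5 of the other immediate early genes. With wildtype array 4 as the only wildtype array, whose spread is then assumed to be that of knockout, 0 of the 9 genes, 0 genes in all and 0 other immediate early genes were called by limma, with 5, 1040 and 23 at an unadjusted p under 0.05. The replicate block, in which number 5 is in wildtype only, called 119 genes instead of 226 and 1 of the family and corepressor genes. Leaving out 1 array gave 4 to 5 of the 9 genes, 62 to 281 genes in all, 10 to 21 other immediate early genes and 0 to 1 of the family and corepressor genes. The split of all calls into higher and lower was 93 and 133, and 147 and 143 with quantile normalization. No called difference of the 9 genes changed sign under these alternatives.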
